A study of Homo sapiens with 11 samples.

Results

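Matrix proteases, their tissue inhibitors and the urokinase system were examined as 9 genes of the 28395 counted in each line: the matrix metalloproteinases MMP1, MMP13, MMP14 and MMP15, the tissue inhibitors TIMP1, TIMP2 and TIMP3, the plasminogen activator PLAU and its receptor PLAUR. They were taken by gene symbol, and the set was drawn up with earlier results of these data known. RNA-Seq counts were analysed for PC3 and DU145 cells, human prostate cancer lines derived from a bone and a brain metastasis, each stably transduced with a negative control lentivirus or with a lentivirus that carries the sialyltransferase ST6GAL1. ST6GAL1 adds α2-6 linked sialic acid to N-glycans of secreted and membrane proteins. PC3 was represented by 3 control and 3 overexpression libraries, and DU145 by 3 control libraries and 2 overexpression libraries, the last numbered replicates 2 and 3. Replicates are labelled as biological, but no label says that they came from separate transductions, so the p-values measure the spread between these samples. Because RNA was taken from whole cultures, a lower count may come from fewer expressing cells or from less RNA per cell, and these cannot be told apart.

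Matrix metalloproteinases are zinc-dependent enzymes that are made as inactive precursors. MMP1 and MMP13 are secreted collagenases, which cleave fibrillar collagen, whereas MMP14 and MMP15 are anchored in the plasma membrane. TIMPs bind the active site of these enzymes and block it, and TIMP2 also forms a bridge between MMP14 and the precursor of MMP2. PLAU, or urokinase, converts plasminogen to plasmin, a broad protease that degrades fibrin and activates several metalloproteinase precursors, and PLAUR holds urokinase at the cell surface. Both systems are widely studied in tumour invasion and in the turnover of bone matrix around metastases.

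Total counts were between 13194485 and 18201359 per library. Values are normalized CPM, which are counts scaled to the library size, with TMM factors taken within a line unless stated otherwise, and a count of 3, taken as the detection floor, equals 0.165 to 0.227 CPM (counting error only). ST6GAL1 was higher in every overexpression library than in every control library of its line, from 2.71 ± 0.538 to 32.6 ± 0.814 CPM in PC3 (SD, n = 3 and 3) and from 12.9 ± 1.45 to 322.9 ± 35.2 CPM in DU145 (SD, n = 3 and 2). All 6 epithelial markers were read above 1 CPM on average in each group, with summed levels of 1010 to 1040 CPM in PC3 controls and 1060 to 1070 CPM with overexpression, and of 1310 to 1350 CPM in DU145 controls and 1060 to 1210 CPM with overexpression. The lower sum in DU145 moved with the groups compared, and its part in the results below was not tested. The prostate marker KLK3 had no counts in any library. The DU145 overexpression libraries stood apart from each other: a chi-square comparison of their counts gave 12.58 per degree of freedom, against 1.37 to 5.21 for the other replicate pairs.

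A gene was called changed at a Benjamini-Hochberg adjusted p under 0.05 from edgeR's quasi-likelihood test, fitted over all genes of a line that passed an expression filter, together with an absolute log2 fold change over 0.58. In PC3, 3 of the 8 genes of the set that were tested passed, against 5.38% of all 13544 tested genes. MMP1 and MMP13 were higher with ST6GAL1 overexpression (3.61% of all tested genes were called higher) and PLAU was lower (1.76% were called lower). On the adjusted p alone 7 of the 8 passed, against 37.3% of all tested genes, 4 of them higher and 3 lower. The control and overexpression libraries did not overlap for the same number, 7 of 8, against 46.2% of all tested genes. In DU145, 1 of the 7 tested genes was called, MMP15, which was lower. Of all 13676 genes tested there 8.94% were called, 4.33% higher and 4.61% lower.

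**Figure D1:**
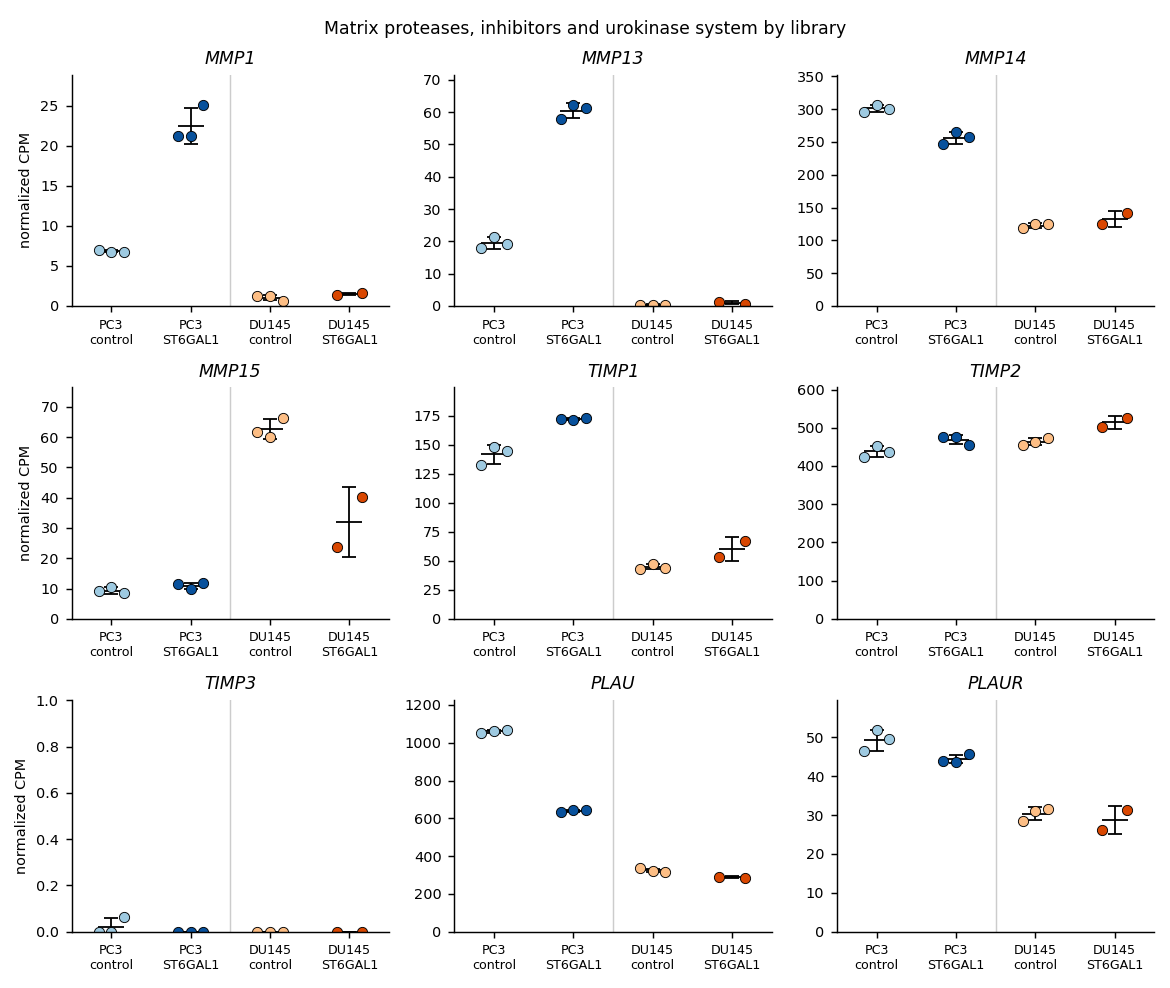
Normalized CPM of the 9 genes in each of the 11 libraries, with the mean and SD of each group as bars; every vertical axis starts at 0. MMP1 and MMP13 stand higher and PLAU lower in the 3 PC3 ST6GAL1 libraries than in the 3 PC3 controls, MMP15 is lower in the 2 DU145 ST6GAL1 libraries, and TIMP3 lies at or near 0 throughout.

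MMP1, interstitial collagenase, lies on chromosome 11 of GRCh38 from 102789919 to 102798160 on the minus strand. It was read at 7.0, 6.79 and 6.73 CPM in the PC3 control libraries and at 21.2, 21.2 and 25.1 CPM with ST6GAL1 overexpression. Every overexpression library was above every control library. The log2 fold change was 1.71 (SE 0.0914, edgeR quasi-likelihood adjusted p = 3.72e-19), a 3.28-fold rise. In DU145 MMP1 was barely expressed, with 18, 20 and 9 counts in the control libraries and 21 and 29 counts with overexpression. These are 1.04 ± 0.322 CPM (SD, n = 3) and 1.49 ± 0.181 CPM (SD, n = 2), and although the groups did not overlap, the log2 fold change of 0.50 did not pass (edgeR adjusted p = 0.327). Its 95% interval ran from -0.21 to 1.21, which includes both no change and a rise of more than 2-fold.

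MMP13, collagenase 3, an enzyme of cartilage and bone remodelling, lies in the same gene cluster on chromosome 11 from 102942995 to 102955732 on the minus strand. The PC3 control libraries held 17.9, 21.4 and 19.3 CPM and the overexpression libraries 57.9, 62.3 and 61.3 CPM. Again the groups were far apart, with the lowest overexpression library well above the highest control. The log2 fold change was 1.64 (SE 0.0587, edgeR quasi-likelihood adjusted p = 3.81e-25), or 3.11-fold. In DU145 MMP13 did not pass the expression filter and was not tested on its own. There it had 6, 7 and 6 counts in the controls and 20 and 11 with overexpression, equal to 0.395, 0.442 and 0.448 CPM against 1.29 and 0.613 CPM. Both overexpression values were above all controls but differed widely from each other. In 1 fit over all 11 libraries MMP13 was called higher in DU145, and it was not called when no filter was used. It passed the filter of that joint fit through PC3, where it is high, and the call is given with that limit.

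The rest of the chromosome 11 metalloproteinase cluster gave few reads. MMP10 (stromelysin 2), which lies on the other side of MMP1, rose from 20 counts summed over the PC3 control libraries to 49 in the overexpression libraries, with a log2 fold change of 1.29 (SE 0.388, edgeR quasi-likelihood adjusted p = 0.00743). MMP3 (stromelysin 1) summed to 9 and 32 counts in PC3, and MMP7 (matrilysin) to 4 and 4, and both were below the expression filter. MMP8, MMP12, MMP20 and MMP27 had no counts in any library. In DU145 the same genes were almost silent: MMP3 and MMP10 each had 0 counts in the controls and 2 with overexpression. Among the 10 tested genes on each side of MMP1, the median log2 fold change in PC3 was 0.02. MMP10, MMP13 and BIRC3 were the 3 called neighbours, of which BIRC3 was lower, against 5.38% of all tested genes called. MMP10 passed the expression filter through the overexpression libraries, in which it is high, and its call is given with that limit.

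MMP14, or MT1-MMP, lies on chromosome 14 from 22836585 to 22847758 on the plus strand and moved the other way in PC3. Control libraries were at 296.1, 306.7 and 300.1 CPM and overexpression libraries at 246.8, 265.1 and 257.2 CPM, without overlap. The gene fell by 0.23 on the log2 scale (SE 0.0289, edgeR quasi-likelihood adjusted p = 1.9e-08), which is significant but under the fold threshold. In DU145 it stood at 118.2, 124.5 and 125.0 CPM in the controls and at 124.3 and 141.1 CPM with overexpression. These groups overlapped, and the log2 fold change of 0.12 did not pass (95% interval -0.05 to 0.29, edgeR adjusted p = 0.342).

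MMP15, or MT2-MMP, a second membrane-type enzyme, lies on chromosome 16 from 58025754 to 58046901 on the plus strand. In PC3 it was low, at 9.13, 10.5 and 8.37 CPM in the controls and 11.4, 9.84 and 11.7 CPM with overexpression, and the groups overlapped (log2 fold change 0.23, edgeR adjusted p = 0.0715). In DU145 the control libraries held 61.7, 59.9 and 66.5 CPM, and the overexpression libraries 23.8 and 40.2 CPM. Both overexpression libraries were below all controls, but they also differed widely from each other. MMP15 fell by 0.96 on the log2 scale (SE 0.221, edgeR quasi-likelihood adjusted p = 0.0347). This call depended on single libraries: leaving out control replicate 1, 2 or 3 gave adjusted p = 0.089, 0.0776 and 0.116 by the same edgeR test, and leaving out the expression filter gave 0.123. With overexpression replicate 2 left out the log2 fold change was -0.65, and with replicate 3 left out it was -1.39, both still called on the assumption that the lone library varies like the controls. After removal of a trend with GC content and length it was -0.60, and MMP15 has the most GC-rich exons of the 9 genes at 65.0%.

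TIMP1, which inhibits most secreted metalloproteinases, lies on chromosome X from 47582436 to 47586789 on the plus strand and was higher in both lines on the adjusted p. In PC3 the controls were at 132.4, 148.0 and 144.7 CPM and the overexpression libraries at 172.4, 171.4 and 173.3 CPM. The groups were separate, and the log2 fold change was 0.28 (SE 0.0345, edgeR quasi-likelihood adjusted p = 8.87e-09). The DU145 controls were at 43.0, 47.2 and 44 CPM, and the overexpression libraries at 52.9 and 67.4 CPM. Here too the groups were separate, with a log2 fold change of 0.43 (SE 0.106, edgeR quasi-likelihood adjusted p = 0.0116). Neither value reached the fold threshold, although in DU145 TIMP1 was called with the GC and length trend removed (0.59) or without overexpression replicate 2 (0.58).

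TIMP2 lies on chromosome 17 from 78852977 to 78925387 on the minus strand and had the smallest change of the tested genes of the set in PC3. It was at 423.3, 453.2 and 437.7 CPM in the PC3 controls and at 475.2, 476.8 and 455.7 CPM with overexpression, which is a log2 fold change of 0.10 (SE 0.027, edgeR quasi-likelihood adjusted p = 0.00305). All overexpression libraries were above all controls, though by little. In DU145 it was at 454.6, 461.9 and 472.7 CPM against 502.4 and 526.7 CPM, also without overlap, and the log2 fold change of 0.15 did not pass (95% interval -0.01 to 0.31, edgeR adjusted p = 0.169). TIMP3, a TIMP that stays bound to the matrix, lies on chromosome 22 from 32801705 to 32863041 on the plus strand. It had 1 count in all 11 libraries together, in a PC3 control, and was below the floor of 3 counts in every library, so it was not detectable at this depth and was not tested.

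PLAU, on chromosome 10 from 73908832 to 73917494 on the plus strand, had the highest level per exon length of the 9 genes in both lines. The PC3 control libraries held 1053, 1063 and 1065 CPM, and the overexpression libraries 630.8, 644.3 and 642.6 CPM. Replicates lay close together and the groups were far apart. PLAU fell by 0.73 on the log2 scale (SE 0.0233, edgeR quasi-likelihood adjusted p = 8.22e-27), to 0.603 of the control level. In DU145 the controls were at 335.3, 320.3 and 316.7 CPM and the overexpression libraries at 291.2 and 286.0 CPM. Both were below all controls, but the log2 fold change of -0.17 did not pass (95% interval -0.32 to -0.01, edgeR adjusted p = 0.123). The 20 tested neighbours of PLAU had a median log2 fold change of -0.002 in PC3, 10 of them were above 0, and none was called.

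PLAUR, the glycolipid-anchored urokinase receptor, lies on chromosome 19 from 43646095 to 43670169 on the minus strand. In PC3 it was at 46.5, 51.8 and 49.5 CPM in the controls and at 44, 43.7 and 45.7 CPM with overexpression. The groups did not overlap, and PLAUR fell by 0.15 on the log2 scale (SE 0.05, edgeR quasi-likelihood adjusted p = 0.0188), under the fold threshold. In DU145 it was at 28.5, 31.1 and 31.5 CPM against 26.1 and 31.3 CPM, overlapping, with a log2 fold change of -0.08 (95% interval -0.31 to 0.16, edgeR adjusted p = 0.662). In DU145 as a whole, 2 of the 7 tested genes had an adjusted p under 0.05, against 20.1% of all tested genes, and the groups were separate for 5 of 7, against 48.3%.

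**Figure D2:**
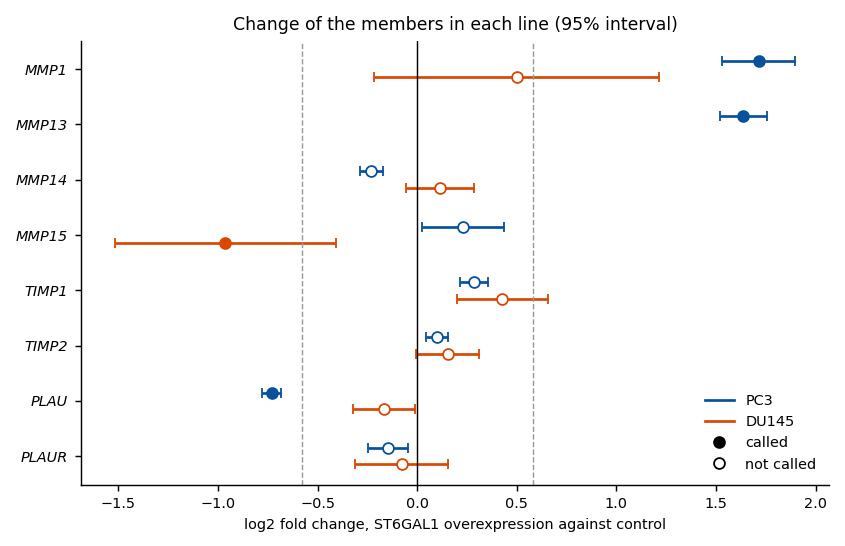
Log2 fold change of ST6GAL1 overexpression against control (horizontal axis) with its 95% interval for the tested genes in PC3 (blue) and DU145 (orange); filled points were called, open points were not, and dashed lines mark the fold threshold of 0.58 in either direction. MMP1 at 1.71 and MMP13 at 1.64 lie to the right in PC3, PLAU at -0.73 to the left, and MMP15 at -0.96 to the left in DU145 with a wide interval.

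To ask whether ST6GAL1 overexpression changed the genes differently in the 2 lines, the difference between the changes was tested over all 11 libraries as an interaction. The lines also differ in the ST6GAL1 level reached with overexpression, 32.55 CPM in PC3 and 322.6 CPM in DU145 on a scale joint to both lines. Line, ST6GAL1 level and the separate count tables of the lines cannot be told apart. The interaction passed for 4 of the 8 tested genes, against 19.7% of all 14952 genes tested. The change of MMP1 was smaller in DU145 than in PC3 by a log2 difference of -1.22 (95% interval -1.88 to -0.57, edgeR adjusted p = 0.00889). Without DU145 control replicate 2, the log2 difference was -1.06 and no longer passed (adjusted p = 0.0569, same edgeR test). MMP14 differed by 0.34 (95% interval 0.18 to 0.50, edgeR adjusted p = 0.0036), with log2 fold changes of -0.23 in PC3 and 0.12 in DU145. The fall of MMP15 in DU145 exceeded its change in PC3 by -1.19 (95% interval -1.82 to -0.57, edgeR adjusted p = 0.0137). For PLAU the decrease was smaller in DU145, by 0.56 (95% interval 0.43 to 0.69, edgeR adjusted p = 2.88e-06). No difference was shown for MMP13 (-0.53, 95% interval -1.44 to 0.37, edgeR adjusted p = 0.429), whose rise in PC3 thus cannot be called absent in DU145 at these counts. That value rested on single DU145 overexpression libraries: it was -1.14 without replicate 2 and -0.08 without replicate 3. The intervals of the other genes included 0, from -0.09 to 0.37 for TIMP1, -0.09 to 0.19 for TIMP2 and -0.16 to 0.30 for PLAUR.

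Levels in the control libraries differed between the lines for most of the set. Of the 8 tested genes 7 were called between DU145 and PC3 controls, against 64.9% of all tested genes, and 6 of them were lower in DU145, against 33.2%. The lines are in separate count tables that were deposited at different times, so the line and whatever else differed between the tables cannot be told apart. On a scale joint to both lines, MMP13 was at 0.430 CPM in DU145 and 19.5 CPM in PC3 controls, a log2 difference of -5.48 (edgeR adjusted p = 6.12e-16). MMP13 did not pass the expression filter in DU145 alone and passed here through PC3, where it is high. Its call, counted among the 7 and the 6, is given with that limit. MMP1 differed by -2.68, PLAU by -1.70, TIMP1 by -1.65, MMP14 by -1.29 and PLAUR by -0.69, each with an adjusted p of 7.5e-11, 5.83e-18, 4.65e-13, 9.73e-15 and 3.43e-08 in that order from the same edgeR test. MMP15 was the exception, at 62.9 CPM in DU145 and 9.31 CPM in PC3 (log2 difference 2.76, edgeR adjusted p = 9.92e-08). TIMP2 did not pass, with 464.7 CPM against 437.3 CPM (log2 difference 0.09, edgeR adjusted p = 0.0731).

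To compare levels between genes, the joint CPM were divided by exon length. In PC3 controls PLAU led with 359.0 ± 1.51 CPM per kb of exon (SD, n = 3), followed by TIMP1 at 97.8 ± 5.49, TIMP2 at 70.4 ± 2.31 and MMP14 at 65.0 ± 1.08 CPM per kb. PLAUR at 11 ± 0.577, MMP13 at 6.88 ± 0.604, MMP1 at 2.49 ± 0.0548 and MMP15 at 2.20 ± 0.25 CPM per kb came last, and the libraries of MMP1 and MMP15 overlapped. With ST6GAL1 overexpression the collagenases moved up: MMP13 reached 21.3 ± 0.813 CPM per kb, above PLAUR at 9.95 ± 0.244, and MMP1 reached 8.20 ± 0.827. In DU145 controls the order was PLAU at 110.0 ± 3.36, TIMP2 at 74.8 ± 1.45, TIMP1 at 31.1 ± 1.56, MMP14 at 26.6 ± 0.823, MMP15 at 14.9 ± 0.788 and PLAUR at 6.84 ± 0.374 CPM per kb (SD, n = 3). Both collagenases were at the bottom of the DU145 order, MMP1 at 0.381 ± 0.118 and MMP13 at 0.152 ± 0.0102 CPM per kb. With overexpression MMP15 dropped to 7.56 ± 2.76 CPM per kb (SD, n = 2), next to PLAUR at 6.44 ± 0.845, and the spreads of these neighbours overlapped.

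**Figure D3:**
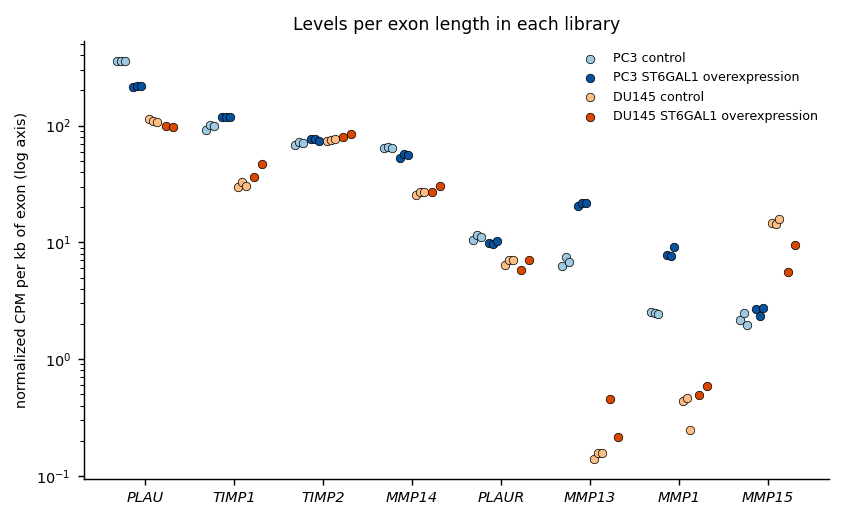
Normalized CPM per kb of exon (log axis) of 8 of the 9 genes in each of the 11 libraries, ordered by their level in PC3 controls; each point is a library, and TIMP3, at or near 0, is not drawn. PLAU lies highest in every group, and MMP13 and MMP1 lie lowest in DU145, more than 10-fold under their PC3 overexpression levels.

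Ratios of a protease to its inhibitor or partner were taken per library from the same per-length levels and were not tested, since 3 libraries against 3 or 2 cannot give a p under 0.05 in an exact permutation test. In PC3 the MMP14 to TIMP2 ratio was 0.909 to 0.939 in controls and 0.698 to 0.758 with overexpression. It was 0.349 to 0.362 in DU145 controls and 0.332 and 0.36 with overexpression, so that these overlapped. The MMP1 to TIMP1 ratio in PC3 was 0.0242 to 0.0279 in controls and 0.065 to 0.0765 with overexpression, and the MMP13 to TIMP1 ratio was 0.0681 to 0.0738 and 0.172 to 0.186. Both collagenase ratios were thus higher in every PC3 overexpression library than in every control. In DU145 they overlapped, at 0.00806 to 0.0146 against 0.0127 and 0.0136 for MMP1 to TIMP1, and at 0.00469 to 0.00519 against 0.0125 and 0.00464 for MMP13 to TIMP1. The ratio of PLAU to PLAUR in PC3 was 31.0 to 34.2 in controls and 21.3 to 22.3 with overexpression. In DU145 it was 15.2 to 17.8 and 13.8 and 16.8, overlapping.

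The wider plasminogen system was read from a list of 19 other genes. The counts of this and the next lists stand against 3.61% of all tested genes called higher and 1.76% lower in PC3, and against 4.33% and 4.61% in DU145. In PC3, 1 of 11 tested genes was called higher and none lower (median log2 fold change -0.04, against -0.002 over all genes), and in DU145 2 of 12 were higher and 1 lower (median 0.05, against -0.002). PLAT, the tissue-type plasminogen activator, was at 1471 ± 22.2 CPM in PC3 controls (SD, n = 3) and 1496 ± 13.2 CPM with overexpression, with overlapping libraries and a log2 fold change of 0.02 (edgeR adjusted p = 0.428). Thus of the 2 plasminogen activators PLAU was called in PC3 and PLAT was not. In DU145 PLAT was at 2.82 ± 0.22 CPM in controls and 0.736 ± 0.332 CPM with overexpression, and it fell by 1.95 on the log2 scale (edgeR adjusted p = 0.000578). SERPINE2, protease nexin 1, an inhibitor of urokinase and thrombin, rose in both lines, by 0.58 in PC3, just over the threshold, and by 1.56 in DU145 (edgeR adjusted p = 7.77e-11 and 2.71e-07). THBD, thrombomodulin, rose by 0.66 in DU145 (edgeR adjusted p = 0.0245).

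Among 19 other matrix metalloproteinases, 5 were tested in PC3 and 2 in DU145. MMP10 alone was called in PC3 (median of the 5, 0.37), and MMP24, a membrane-type enzyme, alone in DU145 (median of the 2, -0.65). MMP24 was at 70.2 ± 4.1 CPM in DU145 controls (SD, n = 3) and 40.7 ± 6.53 CPM with overexpression (SD, n = 2), and it fell by 0.78 on the log2 scale (edgeR adjusted p = 0.000147). The other enzyme tested in DU145, MMP17, was not called (-0.52, edgeR adjusted p = 0.291). The gelatinases MMP2, which MMP14 and TIMP2 help to activate, and MMP9 were at or below 0.478 CPM on average in every group and were not tested. Of 12 further inhibitors and regulators, SPARC, a collagen-binding matrix protein, rose by 2.29 in PC3 (9.36 ± 1.59 to 45.6 ± 4.62 CPM, edgeR adjusted p = 2.51e-17), and PCSK5, a proprotein convertase, fell by 0.67 (edgeR adjusted p = 0.00332). These were 2 of 9 tested (median 0.05). In DU145, 2 of 8 tested were called, both higher (median 0.16): THBS1, thrombospondin 1, by 1.32, and CD44, the hyaluronan receptor, by 0.86 (edgeR adjusted p = 1.55e-07 and 2.36e-06).

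Of the membrane serine proteases and their Kunitz inhibitors, most tested genes were not called in either line. In PC3, 3 of 7 tested were called higher and none lower (median 0.50), and in DU145 none of 6 was higher and 2 were lower (median -0.40). The difference between the lines passed for 5 of 8 tested, each with the lower value in DU145, against 19.7% of all tested genes in either direction. ST14, matriptase, an epithelial protease that can activate urokinase, rose by 2.66 in PC3, from 2.60 ± 0.285 to 16.5 ± 1.49 CPM, and fell by 2.39 in DU145, from 15.1 ± 0.516 to 2.84 ± 0.631 CPM. The difference between these changes was -5.05 (SE 0.195, edgeR quasi-likelihood adjusted p = 1.8e-12). PRSS8, prostasin, was called higher in PC3, from a control level of 0.142 ± 0.0699 CPM, below the floor, to 1.63 ± 0.488 CPM (edgeR adjusted p = 2.15e-08), and it passed the expression filter only through the group in which it is high. SPINT1, the inhibitor of matriptase, fell by 1.17 in DU145 (edgeR adjusted p = 2.73e-06) and was not called in PC3 (0.14, adjusted p = 0.0655).

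**Figure D4:**
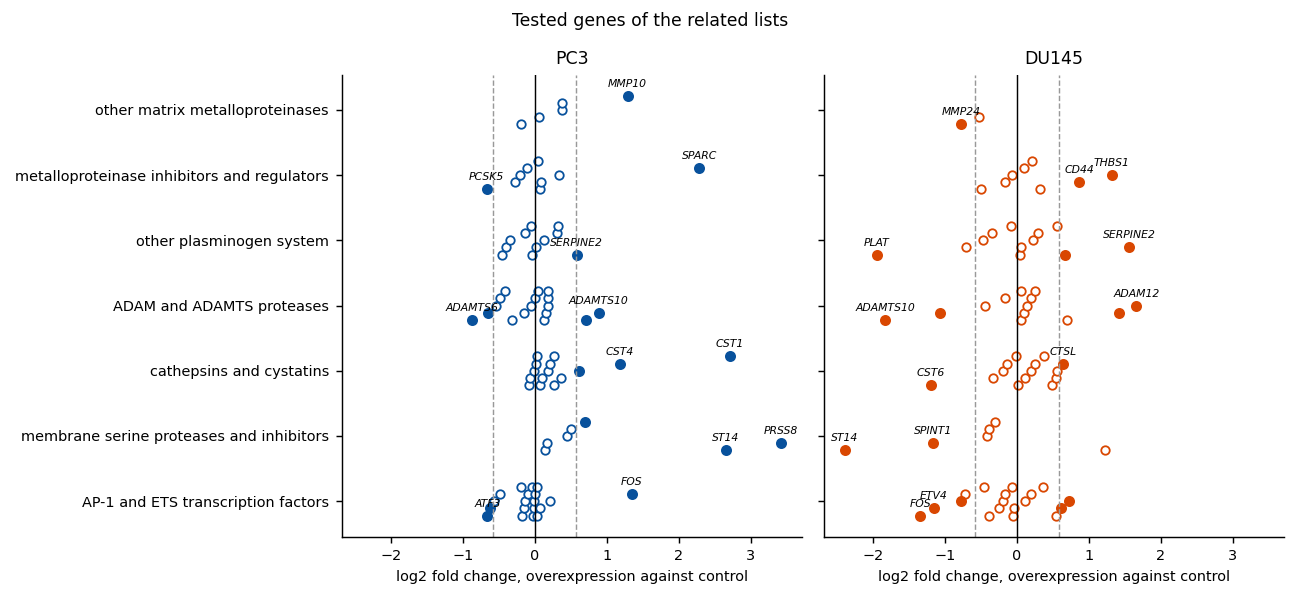
Log2 fold change (horizontal axis) of every tested gene in 7 related lists in PC3 (left, blue) and DU145 (right, orange). Filled points were called, and dashed lines mark the fold threshold of 0.58. In each list and line, up to 2 called genes with the largest absolute change are named. ST14 lies at 2.66 in PC3 and at -2.39 in DU145, and most other list members lie between the dashed lines.

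Of the ADAM and ADAMTS proteases, 4 of 17 tested were called in PC3 and 4 of 13 in DU145, in each line 2 higher and 2 lower (medians 0.01 and 0.09). ADAMTS10 rose by 0.89 in PC3 and fell by 1.83 in DU145 (edgeR adjusted p = 0.0181 and 0.0125), at no more than 1.29 CPM on average in any group. In DU145 it was at 1.18 CPM in controls and 0.32 CPM with overexpression, on a scale joint to both lines. It passed the expression filter there through the control libraries, in which it is high, and that call is given with this limit. In PC3 ADAMTS13 rose by 0.71, ADAMTS6 fell by 0.88 and ADAMTS3 fell by 0.65 (edgeR adjusted p = 1.48e-05, 3.24e-07 and 1.9e-08). ADAM8 fell by 1.08 in DU145 (edgeR adjusted p = 0.0437), and ADAM12 and ADAMTS15 rose in DU145 by 1.66 and 1.41 (edgeR adjusted p = 9.34e-06 and 6.8e-07). Among cathepsins and cystatins, the lysosomal proteases and their inhibitors, 3 of 15 were called in PC3, all higher (median 0.19), and 2 of 14 in DU145, 1 in each direction (median 0.15). The largest change there was in CST1, cystatin SN, which rose from 5.36 ± 0.308 to 35.2 ± 2.92 CPM in PC3 (log2 fold change 2.71, edgeR adjusted p = 1.11e-26). CTSF, cathepsin F, rose by 0.62 in PC3 (edgeR adjusted p = 3.61e-11). CST4, a salivary cystatin, rose by 1.18 in PC3, CTSL, cathepsin L, by 0.64 in DU145, and CST6 fell by 1.20 in DU145 (edgeR adjusted p = 4.6e-05, 0.000229 and 0.00293).

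AP-1 and ETS factors are known regulators of the collagenase and urokinase genes, and 22 of them were read. In PC3, 1 of 19 tested was called higher and 2 lower (median -0.04), and in DU145 2 of 18 were higher and 3 lower (median -0.12). FOS, an AP-1 subunit, was higher by 1.35 in PC3 (0.673 ± 0.376 to 1.72 ± 0.505 CPM) and lower by a log2 value of -1.35 in DU145 (10.3 ± 3.56 to 4.04 ± 0.589 CPM), with edgeR adjusted p = 0.000927 and 0.0187. In PC3 FOS passed the expression filter through the overexpression libraries, in which it is high, and that call is given with this limit. ATF3 and ETS2 were lower in PC3 (-0.66 and -0.62), FOSL2 and ETS1 were higher in DU145 (0.72 and 0.60), and ETV4 and ETV5 were lower in DU145 (-1.16 and -0.78). FOSL1, another FOS family member, was at 827.4 ± 35.9 CPM in PC3 controls and at 805.4 ± 13.9 CPM with overexpression, and it did not pass (edgeR adjusted p = 0.26).

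The stretches before the RefSeq starts of the genes (GRCh38.p14) were searched for letters these factors bind. Windows were read for 6 of the 9 genes, 7 windows in all, and not for MMP1, MMP13 and TIMP2. In the 250 bases before the start, the AP-1 motif TGAGTCA, searched on both strands, was found in 1 of 7 windows, that of PLAUR, 186 bases before the start, against 4.2% of 35116 windows. The ETS cores CAGGAA and CCGGAA, also on both strands, were found in 4 of 7 windows, those of MMP14, MMP15, TIMP1 and PLAUR, each with CAGGAA, against 24.1% of windows for CAGGAA and 14.5% for CCGGAA. Shown are the windows of the called genes MMP15 and PLAU, the latter with no match before the second of its starts, and the PLAUR window with both motifs. Each runs 5′ to 3′ towards the start, with motif matches on either strand in capitals.
MMP15, chr16:58025504-58025753, plus strand: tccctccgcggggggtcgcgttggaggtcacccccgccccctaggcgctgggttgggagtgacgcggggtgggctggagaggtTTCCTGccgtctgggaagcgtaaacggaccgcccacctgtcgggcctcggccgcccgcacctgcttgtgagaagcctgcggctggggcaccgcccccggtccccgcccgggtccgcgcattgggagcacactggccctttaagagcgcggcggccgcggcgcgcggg
PLAU, second start, chr10:73910882-73911131, plus strand: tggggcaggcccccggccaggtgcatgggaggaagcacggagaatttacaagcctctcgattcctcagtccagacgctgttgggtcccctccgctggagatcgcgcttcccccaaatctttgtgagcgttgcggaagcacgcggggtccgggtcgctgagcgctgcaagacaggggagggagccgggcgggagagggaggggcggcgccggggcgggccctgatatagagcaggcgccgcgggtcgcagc
PLAUR, chr19:43670170-43670419, minus strand: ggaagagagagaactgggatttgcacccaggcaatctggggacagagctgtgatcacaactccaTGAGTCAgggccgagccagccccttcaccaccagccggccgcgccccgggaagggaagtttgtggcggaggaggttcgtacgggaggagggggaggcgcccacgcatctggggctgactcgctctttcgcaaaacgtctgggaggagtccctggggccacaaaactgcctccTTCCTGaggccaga
A match is a description of letters and not a bound site, and no match says nothing about the factors.

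Chromosomal neighbours were given the same reading for MMP15. In DU145 the median log2 fold change of its 20 tested neighbours was -0.16, against -0.002 over all tested genes, and 1 of 20 was above 0. CCDC102A (-0.94) and BEAN1 (-0.97) were called lower like MMP15 itself, 2 of 20 against 4.61% of all tested genes called lower. The medians around the other genes of the set in DU145 ran from -0.28 at TIMP2, itself at 0.15, to 0.20 at MMP1 and MMP13. Whether the low median around MMP15 takes part in its value was not tested. The neighbours of MMP13 in PC3 had a median of 0.03, much as those of MMP1, with which they are largely shared.

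**Figure D5:**
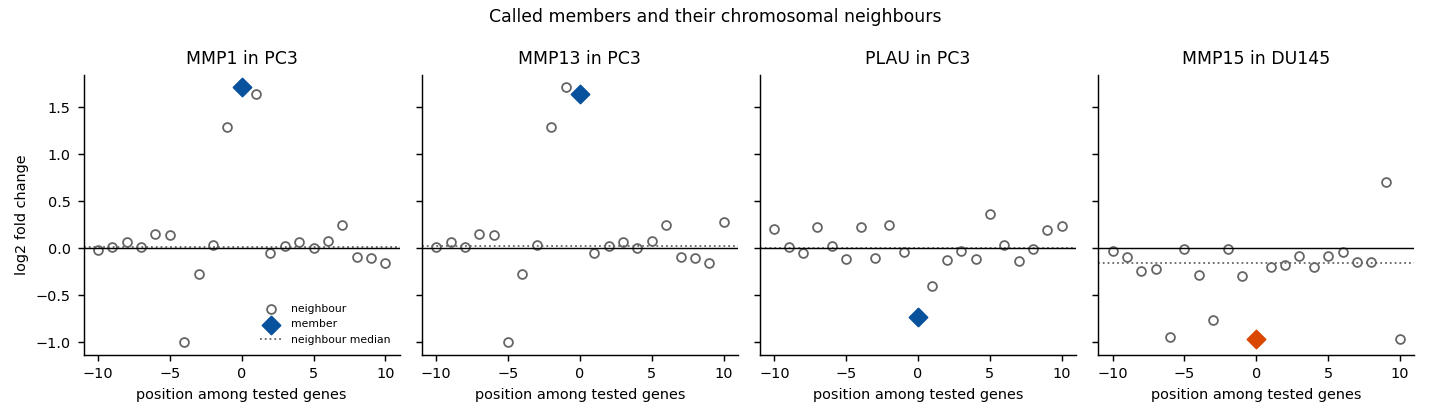
Log2 fold change (vertical axis) of MMP1, MMP13 and PLAU in PC3 and of MMP15 in DU145 (diamonds) beside the 10 nearest tested genes on each side (circles), placed by their order on the chromosome; the dotted line is the neighbours' median. The PC3 medians lie at 0.02, 0.03 and -0.002, and the DU145 median at -0.16 with MMP15 at -0.96.

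Several of the 9 genes overlap other genes, and whether the counting used strand is not given in the sources used here, although the library kit marks strand. PLAU shares 915 exon bases with the antisense gene C10orf55, which had 637 counts over all libraries against 106959 for PLAU. MMP1 shares 223 with the antisense pseudogene WTAPP1, with 8 counts against 1523. TIMP2 shares 224 exon bases with CEP295NL on its own strand, with 22 counts against 81969. It shares 367 more with an antisense long noncoding gene that was not among the counted genes. Reads in these shared stretches cannot be told apart, and the counted partner genes held few counts beside each of the 3. These counts do not show how many reads were lost from the shared stretches.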

How the data were processed

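The authors deposited raw counts per gene (Entrez identifiers, 28395 genes, 97.7% with a symbol) in 1 table per line. Per the methods of the study, single reads were trimmed with Cutadapt, mapped to hg38 with HISAT2 and counted with featureCounts in Galaxy. The submitters' processing notes name FastQC, featureCounts and limma. The annotation and strand setting of the counting are not given in the sources used here, and multi-mapped or overlapping reads may therefore be split or lost.

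Counts were tested with edgeR 4.0.16 in R 4.3.3 (filterByExpr, TMM, robust quasi-likelihood test, Benjamini-Hochberg adjustment over all genes tested), per line, and over all 11 libraries for the difference between lines and between controls. Genes were called where the adjusted p was below 0.05 and the log2 fold change exceeded 0.58 in size, except that the difference between lines used the adjusted p alone. Standard errors (SE) were obtained by dividing the log2 fold change by the square root of F. The study's own test, limma-voom (limma 3.58.1), DESeq2 1.42.0, RLE factors, other filters and thresholds, a GC and length trend (mgcv 1.9.3), 1 joint fit, the replicate block and leaving out each replicate were alternatives. Exon lengths and GC content came from GENCODE, and coordinates and promoters from RefSeq on GRCh38. The tests were run on simulated data first.

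Named were all 9 genes, up to 2 called genes per list, line and direction with the smallest adjusted p, the chromosome 11 cluster and the 3 genes most like each gene of the set. Outside this rule, MMP2, MMP9, MMP17, FOSL1, CST4, BIRC3, CCDC102A and BEAN1, PLAT and SPINT1 in PC3, FOS in DU145 and the markers not called were named after their values were seen. The genes and lists were chosen with earlier results of these data known. Protein sequences and a DU145 overexpression replicate 1 were not analysed here. Replicate numbers were not used as pairs. Some results are not reported here.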

Additional observations from a re-analysis of the deposited data

Results flagged for a closer look

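The change with ST6GAL1 overexpression differed between DU145 and PC3 for 4 of the 8 tested genes by the interaction test of edgeR over all 11 libraries. Subtracting the PC3 log2 fold change from the DU145 value gave -1.22 for MMP1 (adjusted p = 0.00889), 0.34 for MMP14 (adjusted p = 0.0036), -1.19 for MMP15 (adjusted p = 0.0137) and 0.56 for PLAU (adjusted p = 2.88e-06). For MMP1 the DU145 side rests on 9 to 29 counts per library. For MMP15 it rests on 2 overexpression libraries at 23.8 and 40.2 CPM, and for PLAU the lowest of the 11 libraries held 4246 counts. The groups hold 2 or 3 libraries, so no single library was tested as an outlier. Line, the ST6GAL1 level reached and the separate count tables cannot be told apart in these differences.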

How the results depend on the processing

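In PC3 the same 3 genes, MMP1, MMP13 and PLAU, were called under the alternatives run, except that PLAU was under an absolute log2 fold change of 1. Between the control lines 7 were called, but 6 at that stricter fold (without PLAUR) and 5 where 10 counts were required in every sample, which leaves MMP1 and MMP13 untested. For the difference between lines, 3 to 6 passed, MMP14 and PLAU each time. The DU145 count is less stable: by edgeR 0 of the genes were called without a filter, at an adjusted p under 0.01 or at an absolute log2 fold change over 1, and 2 with the GC and length trend removed (TIMP1 joins) or in 1 fit over all 11 libraries (MMP13 joins), and 0 to 2 when a library was left out. MMP13 entered the fit over all 11 libraries through PC3, where it is high, and its DU145 call there is given with that limit. Among all genes, an absolute log2 fold change over 1 left 286 in PC3 and 596 in DU145, and an adjusted p under 0.01 left 1671 for the difference between lines. Leaving out a library gave 830 to 2072 genes in DU145 and 2287 to 5161 for the difference between lines, the highest of each without DU145 overexpression replicate 3. Directions turned only for values that had not passed: PLAUR in DU145 (-0.21 to 0.037 over the libraries left out), the difference between lines for TIMP1 (-0.062 to 0.29), TIMP2 (-0.0002 to 0.076) and PLAUR (-0.087 to 0.18), and TIMP2 between control lines with the GC and length trend removed (-0.01). With that trend removed, the difference between lines passed for TIMP1 (0.31) and TIMP2 (0.15). The cause of these shifts was not tested.

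With the replicate number as a block, 740 genes were called in PC3, 1517 in DU145, 3551 for the difference between lines and 9681 between control lines, and 3, 1, 4 and 7 of the genes examined here. The deviations of same-numbered libraries correlated at -0.002, 0.075 and 0.061 in PC3 and at 0.087 and 0.293 in DU145, where the latter come from 2 overexpression libraries that mirror each other, and the samples were taken to share only a number. Depth limits MMP1 and MMP13 in DU145, at under 30 counts a library, and TIMP3 in both lines.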

Other observations

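The genes whose levels followed each gene of the set most closely were ranked by Pearson's correlation over the 11 libraries, on log2 CPM after the mean of each line was subtracted. The points share libraries and the contrast of the design, so the values are a description. PLAU was followed by HOXB9 (0.988), GUCY1B1 (0.987) and SOCS3 (0.982), and MMP15 by ADAM11 (0.984), FBXO2 (0.978) and TSPAN15 (0.976). MMP1 was followed by AP1G2-AS1 (0.972), CSRNP3 (0.968) and S100A9 (0.968). TIMP1 was closest to COMMD5 (0.991), QSOX1 (0.962) and CREB5 (0.958), and TIMP2 to IL17RE (0.963), PODNL1 (0.958) and SH3BP5-AS1 (0.958). MMP14 was closest to MID1IP1 (0.957), PLEKHG4 (0.949) and CDCP1 (0.947), and PLAUR to GRIN2D (0.963), RPL18 (0.928) and UBALD2 (0.923). MMP13 and TIMP3 were left out because their mean was under 1 CPM in a line.

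The summed levels of markers of other cell types were below those of the epithelial markers in every group. Summed over 7 fibroblast markers the libraries held 29.5 to 36.5 CPM in PC3 and 3.87 to 7.4 CPM in DU145. In PC3 2 of these markers were tested and they went opposite ways: COL3A1, the collagen III chain, rose by 1.98, and COL1A1, the collagen I chain, was lower at 25.6 ± 1.24 and 18.4 ± 0.346 CPM, under the fold threshold (adjusted p = 1.79e-17 and 3.96e-07, edgeR's quasi-likelihood test). The 6 leukocyte markers summed to 20.4 to 22.5 CPM in PC3 and 65 to 73.7 CPM in DU145, and the 4 endothelial markers to 12.2 to 14.7 CPM in PC3 and 0.571 to 2.01 CPM in DU145. Most of the leukocyte sum was CD68, at 21.1 CPM on average in PC3 controls and 57.0 CPM in DU145 controls. The part of these markers in the values of the proteases was not tested. PECAM1 was called higher in DU145 (1.63, edgeR adjusted p = 0.0259) at 0.362 ± 0.143 and 1.11 ± 0.475 CPM. It passed the expression filter there only through the overexpression libraries, in which it is high, and its call is given with that limit. Of the 6 epithelial markers, 3 passed higher and 1 lower in PC3 on the adjusted p (median log2 fold change 0.13), and 2 passed higher and 4 lower in DU145 (median -0.26). The shares of all tested genes that passed on it were 37.3% in PC3 and 20.1% in DU145. CDH1, E-cadherin, was called higher in PC3 by 1.37 and CLDN4, claudin 4, in DU145 by 1.57, whereas KRT8 was lower in both lines (-0.21 and -0.27) and KRT18, KRT19 and EPCAM were lower in DU145 (-0.25, -0.39 and -0.35), all under the fold threshold by edgeR's quasi-likelihood test.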
